A study of Cyprinus carpio with 6 samples.

Results

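The genes described here are the symbol-named parts of the circadian clock and of the cryptochrome family in whole common carp (Cyprinus carpio) embryos at the mid-blastula stage. They were taken by symbol, as every gene with a count in at least 1 library whose name begins with cry and a digit, per1, per2, per3, clock, arntl, bmal, npas2, nr1d, csnk1d or csnk1e, or is tef, tefa or tefb. The rule found 12 genes among 40568 features with a count, of which 32765 were annotated genes and 7803 were assembled loci with names that begin with XLOC. Embryos of the aged group came from 14-day-aged sperm, which was held on ice, and embryos of the fresh group came from sperm used at day 0. The study's methods describe dilution of the collected sperm of each male in a salt extender. Each group had 3 RNA-Seq libraries, and no allele or drug set the groups apart. By the study's methods the same males gave fresh and aged sperm, and the oocytes came from 1 female. The male behind each library and the number of embryos in it are not given in the sources used here, and p-values therefore refer to the spread between libraries alone, which may be technical.

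The clock of vertebrate cells is a feedback loop of transcription. CLOCK pairs with BMAL, also named ARNTL, binds E-box elements and switches on the per and cry genes, whose proteins return to the nucleus and repress the pair, while Rev-erb receptors of the nr1d family repress bmal in a further loop, TEF carries the rhythm to genes with D-box elements, and casein kinase 1 delta sets the pace by phosphorylating PER. In fishes the cryptochrome family also holds photolyases, which use light to repair DNA, and the early embryo lives at first on mRNA that the mother laid down in the egg.

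At mid-blastula the embryos held 8 of the 12 genes, where held means at least 10 counts in every one of the 6 libraries. Of all 40568 features with a count, 60.8% were held, and of the annotated genes among them 57.1% were held. The share of clock genes was thus close to that of all features with a count. The 8 genes were the activator clocka, the repressor cryptochromes cry1a and cry1b, the Rev-erb receptors nr1d2b and nr1d4b, the output factors tefa and tefb, and the kinase csnk1db. The other 4 genes, cry3a, cry4, cry5 and nr1d2a, did not reach 10 counts in each library, and of these only nr1d2a had a count in all 6. Genes with symbols of the per family, arntl, bmal, npas2, csnk1e and nr1d1 numbered 0 in the tables and in the reference annotation used here. Of the 32765 annotated genes, 24674 carried LOC symbols without a description, and which of them are further clock genes was not analysed here.

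The libraries were of similar depth. Total estimated counts were 14993459 to 15632387 in the aged libraries and 15102045 to 15185710 in the fresh libraries. The 12 genes together took 243 to 252 CPM (counts scaled to a common library size) in the aged libraries and 248 to 251 CPM in the fresh libraries. A floor of 3 counts corresponded to 0.192 to 0.200 CPM and covers counting error only. Whole embryos were sequenced, so fewer cells that express a gene and less RNA per cell cannot be told apart.

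Levels between genes were compared per length, as the authors' FPKM, which scales fragments by the transcript's length and the library's depth. The order ran from csnk1db, tefb, tefa and nr1d4b over cry1b, nr1d2b, clocka and cry1a to cry3a, cry5, nr1d2a and cry4. Mean FPKM over the 6 libraries spanned 42.5 for csnk1db to 0.0300 for cry4. These means stood at the 93.3rd and the 14.6th percentile of the 40568 features. Ranges of neighbours in this order did not overlap between csnk1db and tefb, between tefb and tefa, between tefa and nr1d4b, between nr1d4b and cry1b, and between clocka and cry1a. The other neighbours could not be told apart by their ranges. This order is that of the loci under these symbols alone. For cry3a, cry5, nr1d2b, nr1d4b and tefa, the FPKM of an assembled partner locus, described further on, was also added. With these sums 7 of the 12 genes changed place, and cry3a with its partner stood at place 3. The partner of cry5 was chosen by shared functional terms, and whether it shares reads with cry5 was not tested.

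**Figure D1:**
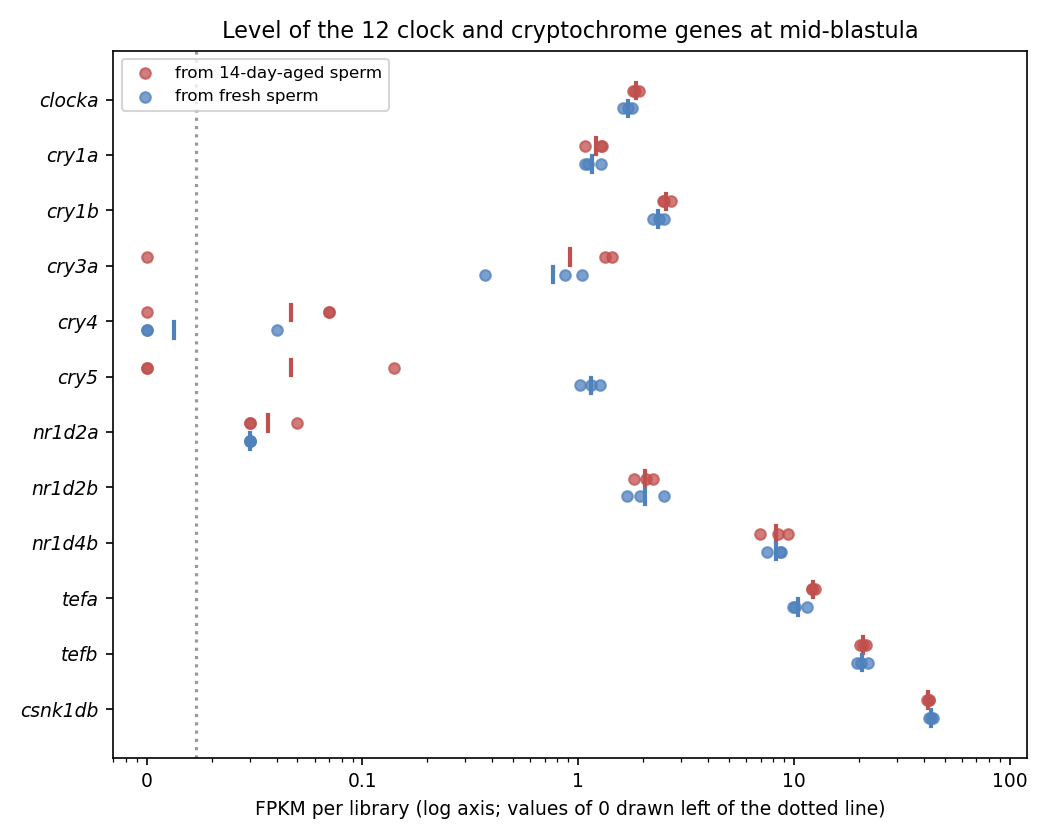
FPKM of the 12 genes in each of the 6 libraries, with embryos from 14-day-aged sperm in red above those from fresh sperm in blue for each gene, on a log axis with values of 0 drawn left of the dotted line. Points are libraries and short vertical lines are group means, of which that of cry4 in fresh libraries also falls left of the dotted line. The aged and fresh points of csnk1db lie between 41.47 and 43.93 FPKM, while cry5 lies at 0 to 0.14 FPKM in the aged libraries and at 1.02 to 1.26 FPKM in the fresh libraries.

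The activator of the core loop, clocka, was present at a low and even level. It lies on chromosome B20 from 13219221 to 13271396 (assembly ASM1834038v1). It had 1.92, 1.84 and 1.79 FPKM in the aged libraries, against 1.78, 1.61 and 1.70 FPKM in the fresh libraries. All aged values lay above all fresh values, with 1.79 and 1.78 FPKM as the closest pair. Scaled by TMM, the means were 12.4 ± 0.226 CPM in aged and 11.6 ± 0.656 CPM in fresh libraries (SD, n = 3 each), a log2 fold change of 0.11 (standard error 0.0941) that was not called (adjusted p = 1.0 in edgeR).

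Both repressor cryptochromes, cry1a and cry1b, were held, with cry1b the more abundant. The gene cry1b lies on A18 from 21889074 to 21899116 and had 2.69, 2.46 and 2.49 FPKM in aged libraries, against 2.49, 2.21 and 2.36 FPKM in fresh libraries. Its paralogue cry1a, on A4 from 8355713 to 8369845, had 1.29, 1.27 and 1.08 FPKM in aged libraries, against 1.07, 1.28 and 1.11 FPKM in fresh libraries. For both genes the groups overlapped. The ratio of cry1b to cry1a in FPKM was 2.11 ± 0.185 in aged and 2.06 ± 0.306 in fresh libraries (SD, n = 3 each; two-sided exact permutation test, p = 1). The log2 fold changes were 0.10 (95% interval -0.15 to 0.36) for cry1b and 0.057 (-0.32 to 0.43) for cry1a.

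The remaining cryptochromes had low and uneven counts under their own symbols. The gene cry3a, on A8 from 10564584 to 10579410, had estimated counts of 46.52, 0 and 41.87 in aged libraries, against 27.68, 32.88 and 11.66 in fresh libraries. Replicate 2 of the aged group was the only library at 0, and the groups overlapped. Its log2 fold change of 0.27 had a standard error of 0.988 and a 95% interval of -2.06 to 2.60. Summed with its partner locus XLOC_007703, the pair stood at 22.45, 19.17 and 17.32 FPKM in aged libraries, against 20.85, 19.8 and 18.36 FPKM in fresh libraries. The pair lay above cry1b in every library and had no gap in replicate 2. Most of this level was that of XLOC_007703, since cry3a itself held only 0 to 7.70% of the summed counts. The gene cry4, whose protein binds flavin in birds, lies on B22 from 4010518 to 4019666 and had 2, 2 and 0 counts in aged libraries and 0, 1 and 0 in fresh libraries. That is under the floor of 3 counts in every library, so no fold is given.

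The gene cry5, whose zebrafish namesake is a (6-4) photolyase that repairs ultraviolet lesions with light, lies on B10 from 18464505 to 18468149. It had estimated counts of 3.49, 0 and 0 in aged libraries, against 31, 25 and 28 in fresh libraries. The groups did not overlap, and replicate 1 was the only aged library with a count. As CPM the means were 0.0628 ± 0.109 in aged and 1.86 ± 0.202 in fresh libraries (SD, n = 3 each). Summed over libraries, 3 counts stood against 84, a ratio of 0.0353 with a 95% exact interval of 0.00714 to 0.107, which covers counting error only. The log2 fold change was -4.68 (standard error 0.753). It did not pass the threshold in edgeR (unadjusted p = 0.00041, adjusted p = 0.467), while DESeq2 called it lower (adjusted p = 0.00404). Over the other ways of fitting cry5 alone, the adjusted p was 0.035 in limma on log2(FPKM + 1) and 0.136 to 0.796 in edgeR and in limma with a smaller pseudocount. Earlier results on these libraries had named cry5, so its place at the low end is not independent evidence.

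**Figure D2:**
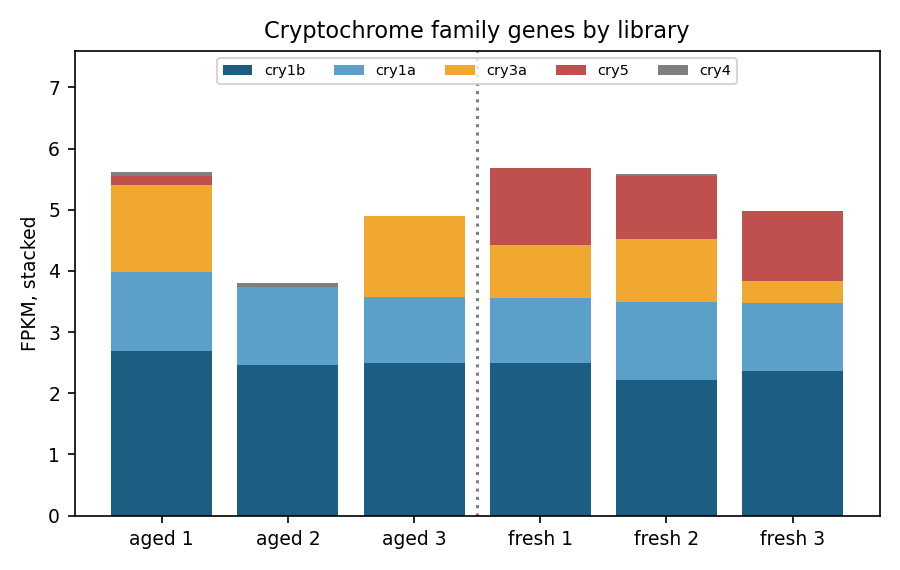
FPKM of the 5 cryptochrome family genes stacked by library, with the 3 aged libraries left of the dotted line and the 3 fresh libraries right of it. The stacks reach 3.8 to 5.62 FPKM in aged and 4.98 to 5.69 FPKM in fresh libraries, with cry1b and cry1a at the base of every stack, no cry3a in aged replicate 2 and a cry5 segment of 1.02 to 1.26 FPKM in the fresh libraries.

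Taken over the 5 family members, the cryptochrome total was 4.77 ± 0.917 FPKM in aged and 5.42 ± 0.384 FPKM in fresh libraries (SD, n = 3 each; two-sided exact permutation test, p = 0.3). The share of this total due to cry1b was 47.9, 64.7 and 50.8% in aged libraries, against 43.8, 39.5 and 47.4% in fresh libraries. The share due to cry5 was 2.49, 0 and 0% in aged libraries, against 22.1, 18.2 and 22.9% in fresh libraries. These totals and shares rest on the named loci. With the partner loci of cry3a and cry5 added, the total was 24.7 ± 3.18 FPKM in aged and 24.3 ± 1.35 FPKM in fresh libraries (SD, n = 3 each; two-sided exact permutation test, p = 1). The share due to cry1b was then 9.56 to 11.4% in aged and 9.08 to 10.3% in fresh libraries. The pair of cry3a and XLOC_007703, mostly XLOC_007703, made up 79.3 to 79.8% of this total in aged and 79.9 to 81.3% in fresh libraries. Whether XLOC_007703 is a cryptochrome was not tested. The partner of cry5 was chosen after its values were seen, and adding it brings the cry5 difference towards 0 by construction. XLOC_043626, a further locus with the terms of cry5 that is described further on, is not in this total. The stacked plot of the named loci shows the cry1 genes as the constant portion. The cry3a portion varied between libraries within both groups, while the cry5 portion differed mainly between the groups.

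Of the Rev-erb receptors, which repress bmal, nr1d4b had the highest FPKM and nr1d2a was at the limit of detection. The gene nr1d4b, on B11 from 241040 to 252796, had 8.43, 9.35 and 6.97 FPKM in aged libraries, against 7.48, 8.59 and 8.71 FPKM in fresh libraries. The gene nr1d2b, on B19 from 1969645 to 1982894, had 2.21, 2.07 and 1.81 FPKM in aged libraries, against 1.68, 2.5 and 1.94 FPKM in fresh libraries. The groups overlapped for both, and the log2 fold changes were -0.015 (95% interval -0.31 to 0.28) for nr1d4b and -0.019 (-0.41 to 0.37) for nr1d2b. The ratio of nr1d4b to nr1d2b in FPKM was 4.06 ± 0.395 in aged and 4.13 ± 0.598 in fresh libraries (SD, n = 3 each; two-sided exact permutation test, p = 1). With their partner loci added to both genes the ratio was 1.60 ± 0.124 in aged and 1.56 ± 0.0283 in fresh libraries (SD, n = 3 each; two-sided exact permutation test, p = 0.9), and nr1d4b was still the higher in every library. The gene nr1d2a, on B16 from 26531773 to 26540413, had 2, 1 and 1 counts in aged libraries and 1 count in each fresh library, all under the floor. The 2 copies of nr1d2 therefore stood far apart, with 91.01 to 135.29 estimated counts for nr1d2b and 1 to 2 for nr1d2a.

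The output factors tefa and tefb, basic leucine zipper proteins that bind the D-box, were among the 3 most abundant of the 12 genes under these symbols alone. The gene tefb, on B3 from 1715448 to 1721118, had 20.29, 21.56 and 20.82 FPKM in aged libraries, against 20.39, 19.53 and 21.97 FPKM in fresh libraries. The groups overlapped, with a log2 fold change of 0.0059 (95% interval -0.17 to 0.18). The gene tefa, on B12 from 11644739 to 11649690, had 12.52, 12.15 and 12.11 FPKM in aged libraries, against 11.45, 10.08 and 9.91 FPKM in fresh libraries. All aged values lay above all fresh values. On the CPM scale tefa averaged 11.3 ± 0.286 in aged and 9.74 ± 0.687 in fresh libraries (SD, n = 3 each), and the log2 fold change of 0.22 (95% interval -0.022 to 0.45) was not called (unadjusted p = 0.0695, adjusted p = 1.0 in edgeR). The ratio of tefb to tefa in FPKM was 1.70 ± 0.0780 in aged and 1.98 ± 0.221 in fresh libraries (SD, n = 3 each; two-sided exact permutation test, p = 0.1, the smallest that 3 against 3 libraries can give). With the partner locus of tefa added, the ratio was 1.19 ± 0.0390 in aged and 1.34 ± 0.0969 in fresh libraries (SD, n = 3 each, two-sided exact permutation test, p = 0.1).

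The kinase csnk1db, casein kinase 1 delta, which phosphorylates PER and many other proteins, was the most abundant and the most evenly counted of the 12. It lies on B12 from 18248078 to 18258677. Its level was 42.05, 42.33 and 41.47 FPKM in aged libraries, against 43.93, 43.13 and 42.32 FPKM in fresh libraries. The FPKM ranges touched, and the TMM-scaled means were 127 ± 2.05 CPM in aged and 132 ± 1.77 CPM in fresh libraries (SD, n = 3 each). The log2 fold change of -0.050 (standard error 0.0425) was not called, and its 95% interval allowed a fold of 0.901 to 1.04.

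Between the groups, 10 of the 12 genes had enough counts to be tested, and 0 of them were called higher or lower in edgeR's quasi-likelihood test at an adjusted p under 0.05. Over all 27342 tested features the share called was 0.0146%, or 4 features, with 0.00731% higher and 0.00731% lower. At an unadjusted p under 0.05 there was 1 of the 10 genes, cry5, which was lower, against a background of 3.36% in either direction, 1.46% higher and 1.90% lower. DESeq2 called 1 of 11 of the genes, again cry5, against a background of 0.163%. At the limits that the study's methods set for DESeq2, a fold of 2 with a corrected p of 0.001, edgeR called 0 features (0%). DESeq2 calls were not counted at these limits here. The TMM-scaled CPM of the groups did not overlap for 4 of the 10 genes, against 8.56% of all tested features. These were clocka and tefa, with higher CPM in the aged libraries (background 4.11%), and csnk1db and cry5, with lower CPM (background 4.45%).

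**Figure D3:**
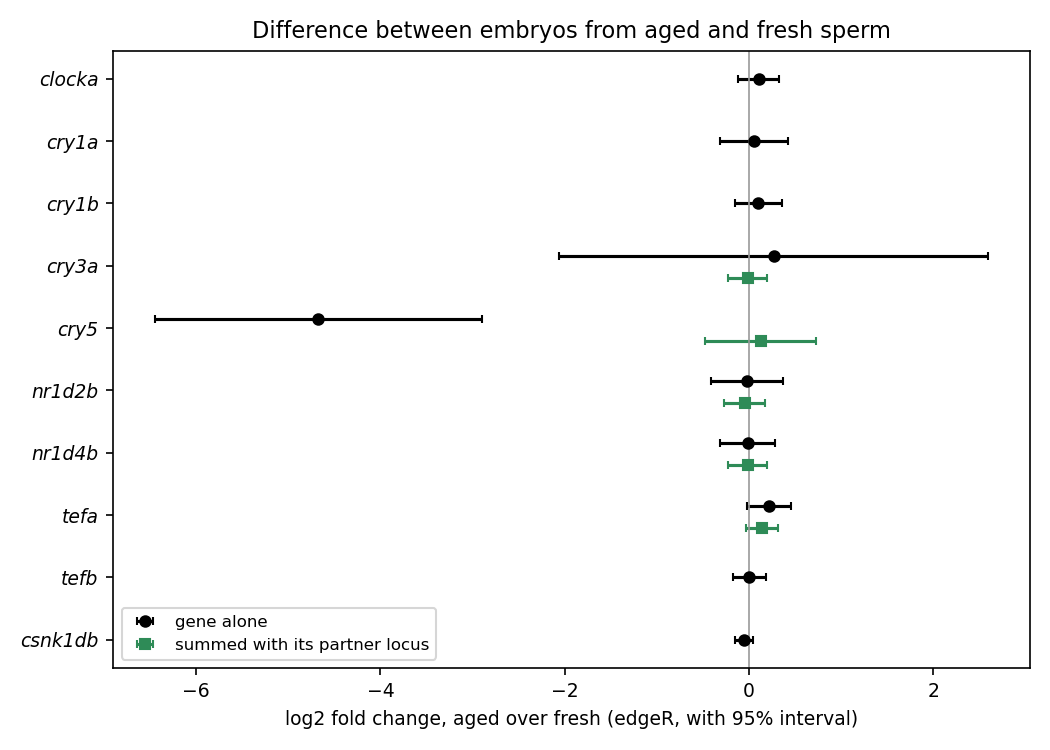
Log2 fold change of aged over fresh embryos from edgeR for the 10 tested genes, with 95% intervals as horizontal bars. Black circles are the gene alone and green squares the gene summed with its partner locus. The black interval of cry5, from -6.45 to -2.90, is the only one that does not reach 0, and with its partner summed the interval of cry5 runs from -0.47 to 0.73.

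The median log2 fold change of the 10 genes was 0.031, against -0.00090 over all tested features. The median size without regard to sign was 0.080, against 0.091. Of the 10 genes, 6 had a positive value, against 49.7% of all tested features. Apart from cry5 and cry3a, no interval among the 10 genes reached a log2 fold change of 0.5 in either direction, as the plot of differences shows.

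Common carp is an allotetraploid whose subgenomes A and B hold near-identical gene copies, and RSEM, the program named in the deposited labels, divides a read that matches several loci into parts that add to 1. Estimated counts that are not whole numbers therefore show loci that share reads. Of the 12 genes, 9 (75%) lie on B chromosomes and 3 on A chromosomes. Of 7977 symbol-named genes on A or B chromosomes, 67.2% lie on B, which is close to that share. In the 6 libraries 41.2 to 41.8% of the listed counts were not whole. The genes cry1a, cry1b, cry4, nr1d2a and tefb had whole counts in every library, clocka and cry5 had a non-whole count in 1 library each, and cry3a, nr1d4b, nr1d2b, tefa and csnk1db had them in 5 or 6 libraries.

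For these last 5 genes, the other loci with non-whole counts in at least 5 libraries were searched for counts that add to a whole number. The sum had to be whole in all 6 libraries, within 0.01. Only pairs of loci were searched for, so reads shared among more loci would be missed. For 4 of the 5 exactly 1 such locus was found. The gene csnk1db had 0 such loci. Of 12727 features with non-whole counts in at least 5 libraries, 56.2% had exactly 1. This search was added after the values had been seen.

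The partner loci were of like length, except that of tefa, and took very different shares of the reads. For cry3a (2369 bases) it was XLOC_007703 (2367 bases), with which it summed to 731, 614 and 544 counts in aged libraries, against 661, 626 and 582 in fresh libraries. Of these sums cry3a held 6.36, 0 and 7.70% in aged libraries, against 4.19, 5.25 and 2.0% in fresh libraries. The counts of cry3a were thus a small and variable part of the sum. For nr1d4b (2524 bases) it was XLOC_031668 (2630 bases), with sums of 339, 344 and 302 in aged libraries, against 299, 336 and 341 in fresh libraries, of which nr1d4b held 78.0 to 93.6%. For nr1d2b (3851 bases) it was XLOC_016629 (3894 bases), with sums of 352, 315 and 316 in aged libraries, against 302, 350 and 344 in fresh libraries, of which nr1d2b held 30.1 to 38.7%.

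The sums of these 3 pairs overlapped between the groups. Their fitted log2 fold changes were -0.013 (standard error 0.0911) for the cry3a pair, -0.015 (0.0914) for the nr1d4b pair and -0.046 (0.0930) for the nr1d2b pair. The standard error of the cry3a pair was far under the 0.988 of cry3a alone. The adjusted p was 1.0 for each in edgeR.

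For tefa (1247 bases) the partner was XLOC_032576 (2347 bases). The pair summed to 337, 336 and 329 counts in aged libraries, against 294, 300 and 299 in fresh libraries. The sums of the aged libraries all lay above those of the fresh libraries, as did the values of tefa alone. As CPM the pair averaged 21.8 ± 0.647 in aged and 19.8 ± 0.585 in fresh libraries (SD, n = 3 each). The log2 fold change of the pair was 0.14 (95% interval -0.035 to 0.32), and it was not called (unadjusted p = 0.101, adjusted p = 1.0 in edgeR).

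**Figure D4:**
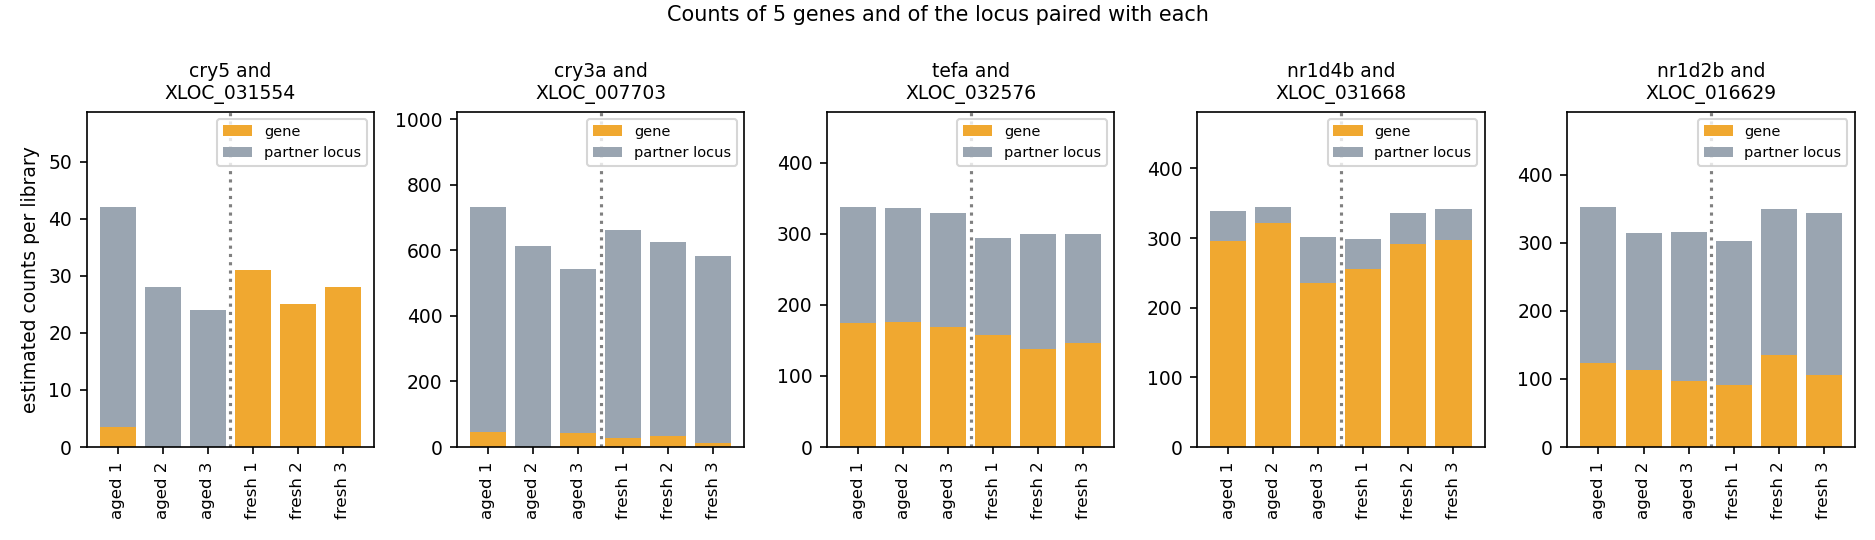
Estimated counts of 5 genes (orange) and of the locus paired with each (grey), stacked by library, with the 3 aged libraries left of the dotted line and the 3 fresh libraries right of it; each panel has its own scale from 0. The cry5 panel shows the stack passing from the partner locus in the aged libraries to cry5 in the fresh libraries at a sum of 24 to 42 counts, and the tefa panel shows the 3 aged sums of 329 to 337 above the 3 fresh sums of 294 to 300.

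The counts of cry5 had a mirror image at an assembled locus. XLOC_031554 (1938 bases, against 1895 for cry5), which the study's supplementary annotation gives the same functional terms as cry5, had 38.51, 28 and 24 counts in aged libraries, against 0, 0 and 0 in fresh libraries. In the 1 library where cry5 was not whole, 3.49 and 38.51 add to 42. That single match does not single out XLOC_031554, since 485 loci complete cry5 to a whole number there. The pair summed to 42, 28 and 24 counts in aged libraries, against 31, 25 and 28 in fresh libraries, and the groups overlapped. Of the sum, cry5 held 8.31, 0 and 0% in aged libraries, against 100% in each fresh library.

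Summed with XLOC_031554, cry5 averaged 2.03 ± 0.533 CPM in aged and 1.86 ± 0.202 CPM in fresh libraries (SD, n = 3 each). The log2 fold change was 0.13 (95% interval -0.47 to 0.73), and neither edgeR nor DESeq2 called it (adjusted p = 1.0 in both). XLOC_031554 alone was not called in edgeR (adjusted p = 0.245) and was called higher in DESeq2 (adjusted p = 8.95e-05). The pair was put together after both sets of values had been seen, and summing 2 loci that move in opposite directions brings their difference towards 0 by construction. Whether both loci take the same reads was not tested. The pair leaves out XLOC_043626, the other assembled locus with the terms of cry5, which is described next.

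XLOC_043626 (3226 bases) had 0, 0 and 0 counts in aged libraries, against 10.81, 28.46 and 28.55 in fresh libraries. All 3 loci with these terms summed to 42, 28 and 24 counts in aged libraries, against 41.81, 53.46 and 56.55 in fresh libraries. As TMM-scaled CPM the 3-locus sums averaged 2.03 ± 0.533 in aged and 3.37 ± 0.576 in fresh libraries (SD, n = 3 each) and did not overlap. The log2 fold change was -0.73 (95% interval -1.32 to -0.13), and it was not called (unadjusted p = 0.023, adjusted p = 1.0 in edgeR, adjusted p = 1.0 in DESeq2). The difference of the summed loci thus depended on whether XLOC_043626 was counted with cry5. The 3 non-whole counts of XLOC_043626 were completed to whole numbers by 1 locus of all, LOC109066089 (3309 bases), which is neither cry5 nor XLOC_031554. LOC109066089 had 891, 846 and 764 counts in aged libraries, against 845.19, 835.54 and 718.45 in fresh libraries. With XLOC_043626 added the sums were 891, 846 and 764 in aged libraries, against 856, 864 and 747 in fresh libraries, and they overlapped.

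The 3 features whose log2 CPM followed cry5 most closely over the 6 libraries were XLOC_005454 (Pearson r = 0.999), LOC109113580 (r = 0.988) and ctr9 (r = 0.987), which is a description of 6 libraries. They were picked as the highest of all tested features, and no background of r was computed, so a link to cry5 was not tested. XLOC_005454 had 120, 109 and 104 counts in aged libraries, against 135, 131 and 128 in fresh libraries. ctr9, a subunit of the PAF1 complex that accompanies RNA polymerase II, had 1883, 1745 and 1670 counts in aged libraries, against 1932, 1884 and 1855 in fresh libraries, and these counts overlapped. LOC109113580 had 20, 18 and 17 counts in aged libraries, against 25, 26 and 24 in fresh libraries.

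Around the core genes, lists of related genes were read by symbol, so copies under LOC symbols were not included. Most listed kinases and ubiquitin ligases that act on clock proteins were held, while most listed light-input genes were not. Of all features, 60.8% were held. Of 12 genes for kinases and turnover with a count, 11 were held and 11 tested, and 0 were called, with a median log2 fold change of 0.025. The most abundant were csnk1a1, casein kinase 1 alpha, with 198 ± 4.31 CPM in aged and 197 ± 8.60 CPM in fresh libraries, and csnk1g1, casein kinase 1 gamma, with 140 ± 7.08 CPM in aged and 138 ± 13.2 CPM in fresh libraries (SD, n = 3 each). The gene fbxl3a, whose mammalian counterpart marks cryptochromes for degradation, had 21.6 ± 0.678 CPM in aged and 20.6 ± 0.865 CPM in fresh libraries.

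Of 12 genes of light input and melatonin synthesis with a count, only asmtl was held, at 19.2 ± 1.34 CPM in aged and 19.8 ± 2.27 CPM in fresh libraries (SD, n = 3 each). The gene asmtl was listed by its symbol alone, and whether it acts in melatonin synthesis was not tested. The next by level, asmt2, of the family that makes the last step of melatonin synthesis, had 3, 3 and 5 counts in aged libraries and 5, 1 and 8 in fresh libraries. The melanopsin genes opn4a, opn4b, opn4xa and opn4.1 had at most 3 counts in any library, and aanat1 had 1 count in all. The list had 1 tested gene and 0 called.

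Of the other genes of output and of the Rev-erb loop, 5 had a count and only nfil3-3, from the family of D-box repressors, was held, at 46, 43 and 37 counts in aged libraries, against 38, 33 and 32 in fresh libraries. The counts overlapped while the TMM-scaled CPM, 2.53 to 2.89 in aged and 2.16 to 2.49 in fresh libraries, did not, and its log2 fold change of 0.26 (standard error 0.180) was not called. roraa, a receptor that in mammals activates Bmal1, had 5, 6 and 4 counts in aged libraries and 7, 5 and 3.08 in fresh libraries. Of the genes listed as repressors outside the core only timeless had a count, at 215 ± 15.5 CPM in aged and 224 ± 7.89 CPM in fresh libraries (SD, n = 3 each), and it was not called. The gene timeless acts at replication forks, and whether it acts in the clock in these embryos was not tested.

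Because cry5 is named for a photolyase, the genes that remove light lesions from DNA by excision were read beside it. Of 13 with a count, 12 were held and tested, and 0 were called, with a median log2 fold change of 0.0093. The gene not held was xpa, with 0, 3.56 and 0 counts in aged libraries, against 13.02, 0 and 3.71 in fresh libraries. Listed symbols without a count, among them xpc, ddb1 and ddb2, are left out of these numbers. rad23b, a partner of the lesion sensor XPC, had 63.2 ± 4.05 CPM in aged and 70.7 ± 3.71 CPM in fresh libraries (SD, n = 3 each), a log2 fold change of -0.16 (unadjusted p = 0.0493, adjusted p = 1.0 in edgeR). ercc5, an endonuclease of the pathway, had 55.1 ± 6.32 CPM in aged and 54.1 ± 1.59 CPM in fresh libraries.

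The stage and tissue of the samples were checked by markers. Listed symbols without a count, zar1, buc, dazl and ddx4 of the maternal list among them, are left out of the numbers for each class. Of 7 maternal or germ line genes with a count, 6 were held, and org had 1 count, in fresh replicate 3. The highest, the maternal cyclins ccna1 and ccnb1, stood at 2077 and 1991 CPM in aged libraries, and at 2116 and 2006 CPM in fresh libraries. Of 9 early zygotic or blastula genes with a count, 4 were held. The highest, nanog and pou5f3, stood at 804 and 721 CPM in aged libraries, and at 817 and 744 CPM in fresh libraries. Whether their mRNA came from the mother or from the embryo's own transcription was not tested. Those not held, sox19a, ndr1, gsc, eve1 and her3, had at most 10 counts in any library. Of 4 retina or pineal genes with a count, only pde6b was held, at 3.61 CPM in aged and 3.12 CPM in fresh libraries, crx, a photoreceptor factor, had 8 to 15 counts, and the pineal opsin exorh had 1 count in 1 library. The summed level of these 4 genes was 3.89 to 4.93 CPM in aged and 3.08 to 4.39 CPM in fresh libraries. Of 4 sperm or testis genes with a count, spata18 and dnah9 were held, at 27.6 and 1.14 CPM in aged and 33.3 and 1.13 CPM in fresh libraries. tekt3 had 2 to 6 counts and tekt2 had 0 to 1. The list summed to 27.8 to 30.4 CPM in aged and 31.8 to 37.5 CPM in fresh libraries, and most of this sum was spata18. Whether spata18 mRNA came from sperm was not tested. spata18 had an unadjusted p of 0.014 and an adjusted p of 1.0 in edgeR. Of the listed genes of later tissue only the muscle gene ckma had a count, with 0 to 3 counts in each library.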

How the data were processed

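Clean DNBSEQ reads of poly(A)-enriched RNA were mapped by the authors with HISAT2 (assembly ASM1834038v1). StringTie and Cuffmerge then gave the transcripts, to which Bowtie2 aligned the reads. Versions are not given in the sources used here. Per the labels of the deposited tables, RSEM gave estimated counts per gene, FPKM, TPM and gene lengths. The deposited estimated counts, FPKM and lengths were used, and the deposited TPM were not. The deposited columns of the authors' own comparison hold p-values and log2 fold changes and were not used. Coordinates came from a RefSeq gene table of the same assembly.

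Estimated counts were rounded and tested in R 4.3.3 by the quasi-likelihood test of edgeR 4.0.16, after filterByExpr and TMM scaling, with group as the only term, with Benjamini-Hochberg adjustment over the 27342 tested features and a threshold of 0.05. The standard error is the size of the log2 fold change divided by the square root of F. Alternatives used DESeq2 1.42.0, limma 3.58.1, other filters and scalings, a replicate block, and each library left out. Partner loci were searched on unrounded counts. Single values were compared with two-sided exact permutation tests over the 20 assignments of libraries to groups of 3. The edgeR test and the partner search were also run on simulated data, with the same dispersion for all features and with non-whole counts in every library. These settings differ from the data, and no result here rests on them.

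The genes and lists were chosen with earlier results of these data known. Every gene of the rule is accounted for. From each list the text names the called genes or otherwise the 2 with the highest mean CPM, and for cry5 the 3 features of highest correlation and both assembled loci that share its terms. fbxl3a, exorh, org, tekt2, tekt3, xpa, LOC109066089, the melanopsin genes, aanat1 and the partner loci were named after their values were seen. So were the blastula genes that were not held and the listed genes named as having no count. Python 3.11.15 with pandas 2.3.3, numpy 2.4.6, scipy 1.17.1 and matplotlib 3.10.9 made tables and figures.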

Additional observations from a re-analysis of the deposited data

How the results depend on the processing

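Of the results read for each gene alone, 130 values kept their direction and side of the threshold, 16 changed sign and 2 passed the threshold. Both that passed were cry5, by DESeq2 and by limma on log2(FPKM + 1) (log2 fold change -4.85 and -1.03, adjusted p = 0.00404 and 0.035), so that 1 of the genes was called under each of these. Over all features, 4 calls by edgeR became 57 with DESeq2 (55 with partner loci summed), 1 with at least 10 counts in every library, 2 with annotated genes only, and 7 with limma on log2(FPKM + 0.1). Leaving out each library gave 3 to 9 calls over all features, with 9 without fresh replicate 3, and 0 calls among the clock genes each time. With at least 10 counts in every library, cry3a and cry5 were not tested.

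Under a replicate block 0 features were called by edgeR, with 599 higher and 970 lower at an unadjusted p under 0.05, and cry3a had a log2 fold change of -0.091. The sources used here do not tie replicate numbers to males, so the numbers were not taken as pairs. Deviations of same-numbered libraries had correlations of -0.0024, 0.037 and 0.089 across 27342 features. These values cannot tell whether such libraries share a male.

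Values of cry3a, nr1d2b, nr1d4b, tefb and cry5 changed sign under some settings. On log2(FPKM + 0.1) cry3a had -0.42 and nr1d2b 0.0067, and on log2(FPKM + 1) nr1d2b had 0.0020. Summed with the partner locus cry3a had -0.013 (-0.015 in DESeq2) and cry5 0.13 in both tools, while cry5 summed with XLOC_031554 and XLOC_043626 had -0.73 in both, not called. Leaving out each library gave cry3a -0.17 to 0.85, nr1d2b -0.14 to 0.14, nr1d4b -0.11 to 0.079, tefb -0.043 to 0.075 and cry5 -7.81 to -4.14, where -7.81, without aged replicate 1, is set by the prior count since the group is then at 0. With partners summed these ranges were -0.10 to 0.055 for cry3a, -0.11 to 0.26 for cry5, -0.12 to 0.00018 for nr1d2b and -0.077 to 0.041 for nr1d4b. The number of genes held was 8 to 9 without each library (9 without aged replicate 2, where cry3a was held) and 10 with partners summed. The order of levels changed for 0 to 2 genes without each library and for 7 with partners summed. The causes of these shifts were not tested.

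The planned comparison of protein sequences and the search of promoters for clock motifs, with their alternatives, were not run, as the sequences were not used here. At 0 to 2 counts a library, cry4 and nr1d2a allow no comparison.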
